A study of Homo sapiens with 8 samples.

Results

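Of 60 genes of the cell cycle and DNA replication, chosen by name, 44 had a named transcript cluster (the probe group that reads 1 transcript) on the array, and 16377 clusters were measured in all. They comprised the D cyclins *CCND1* and *CCND2*, described apart, and 42 of 58 genes of the G1 to S transition, DNA replication, damage checkpoints and mitosis. No cluster was named for *CDKN1B*, *ORC1*, *PRIM1*, *POLA2*, *POLE*, *RFC3*, *RFC5*, *HELLS*, *ATM*, *BRCA2*, *ASPM*, *CENPF*, *NUF2*, *BORA*, *NCAPD2* or *NCAPD3*, which were not analysed here. Where several clusters carried a gene's name, the brightest stood for it.

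Cells enter the cycle when D cyclins, bound to CDK4 or CDK6, phosphorylate the retinoblastoma protein RB, which otherwise holds the E2F transcription factors in check. E2F factors bound to their partner DP1 then switch on genes for origin firing, nucleotide supply and replication. Genes of mitosis are expressed later, in G2, through the MuvB complex with B-MYB and FOXM1, many of them by way of a short promoter element named CHR.

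Affymetrix Human Gene 2.0 ST arrays were used to measure total RNA in 4 clones labelled as LNCaP, an androgen receptor-positive human prostate tumor line, that stably expressed *HIST1H1A* (clones 2, 8, 9 and 10), and in 4 clones with the same label that carried a control vector (clones 3, 4, 8 and 9). *HIST1H1A* encodes the linker histone H1.1. Both groups were made by lentiviral transduction, blasticidin selection and serial dilution to single clones, and each clone had 1 array, so that a difference between clones and the error of 1 measurement cannot be told apart. Values are log2 signals, differences are *HIST1H1A* minus control, and a gene was said to rise or fall where the adjusted p of limma, over all clusters, was under 0.05.

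The median signal of the arrays lay between 3.25 and 3.30, and that of all values was 3.27. Of the luminal prostate markers that define LNCaP, 3 of 12 were measured. All 3 fell, and *FOLH1*, which encodes prostate-specific membrane antigen, had 2.41 to 2.96 in *HIST1H1A* clones, below the median of all values, and 8.14 to 9.25 in control clones. *FOLH1*, 1 of these markers, therefore lay in the lower part of all signals in the *HIST1H1A* clones. The other 2, the keratins *KRT8* and *KRT18*, fell by 1.41 and 1.16. Their signals in *HIST1H1A* clones were 4.65 to 5.53, above the median of all values. The summed signal of the 3 markers was 12.5 to 13.1 in *HIST1H1A* clones and 20.2 to 21.9 in control clones. These markers go against the label of the *HIST1H1A* clones, whose identity as LNCaP was not otherwise checked here. Expression of *HIST1H1A* and any difference in the identity or state of the cells cannot be told apart in the comparisons that follow. Markers of other cell types numbered 1 of 6 basal (*KRT5*), 3 of 8 stromal, 3 of 12 leukocyte and 2 of 6 endothelial genes measured. None passed in limma or in the ordinary equal-variance test, with 0 at an unadjusted p under 0.05, and their signals lay between 2.02 and 4.65 in *HIST1H1A* clones and between 2.00 and 5.08 in control clones. Their summed signals ran from 2.52 to 2.65 (basal), 8.63 to 9.05 (stromal), 9.02 to 9.98 (leukocyte) and 7.45 to 7.76 (endothelial) in *HIST1H1A* clones. In control clones these sums ran from 2.44 to 3.00, 8.71 to 9.63, 8.77 to 9.87 and 7.25 to 8.09 in the same order of cell types.

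RefSeq promoter windows of 300 bases (GRCh38.p14), read 5′ to 3′ along the gene, were searched for E2F letters (TTCCCGC or TTCGCGC or TTGGCGC or TTGCCGC) and for CHR letters (TTTGAA or TTCGAA), each on both strands. A gene was counted where any of its listed starts held a match, and a match of one kind cannot share bases with a match of the other. A window was listed for 51 of the 60 genes, and for neither D cyclin. The windows of *CDC7*, *E2F7* and *EXO1*, which rose, show the E2F letters in capitals, and those of *ESPL1* and *KIF11*, a mitotic gene that rose and one that did not pass, show the CHR letters in capitals. The matches shown for *CDC7*, *E2F7* and *KIF11* are on the opposite strand.
CDC7, chr1:91500601-91500900, plus strand: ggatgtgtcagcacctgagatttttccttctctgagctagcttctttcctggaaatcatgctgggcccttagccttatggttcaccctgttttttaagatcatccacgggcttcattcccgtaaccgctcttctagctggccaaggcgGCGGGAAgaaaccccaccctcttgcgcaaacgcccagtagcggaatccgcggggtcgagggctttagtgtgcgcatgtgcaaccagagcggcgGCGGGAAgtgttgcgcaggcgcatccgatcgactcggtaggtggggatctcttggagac
E2F7, chr12:77065520-77065819, minus strand: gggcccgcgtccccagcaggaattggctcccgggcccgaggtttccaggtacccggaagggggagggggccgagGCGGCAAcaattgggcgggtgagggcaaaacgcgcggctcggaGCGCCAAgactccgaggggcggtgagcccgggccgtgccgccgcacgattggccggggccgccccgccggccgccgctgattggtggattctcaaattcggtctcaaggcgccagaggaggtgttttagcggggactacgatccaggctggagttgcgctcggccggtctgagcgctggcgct
EXO1, chr1:241847954-241848253, plus strand: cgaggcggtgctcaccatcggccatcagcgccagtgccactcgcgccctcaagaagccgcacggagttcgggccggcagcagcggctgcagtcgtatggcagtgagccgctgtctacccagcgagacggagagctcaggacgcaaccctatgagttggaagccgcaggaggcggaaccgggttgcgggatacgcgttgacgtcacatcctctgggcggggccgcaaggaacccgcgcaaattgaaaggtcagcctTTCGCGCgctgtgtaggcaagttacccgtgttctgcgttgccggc
ESPL1, chr12:53268049-53268348, plus strand: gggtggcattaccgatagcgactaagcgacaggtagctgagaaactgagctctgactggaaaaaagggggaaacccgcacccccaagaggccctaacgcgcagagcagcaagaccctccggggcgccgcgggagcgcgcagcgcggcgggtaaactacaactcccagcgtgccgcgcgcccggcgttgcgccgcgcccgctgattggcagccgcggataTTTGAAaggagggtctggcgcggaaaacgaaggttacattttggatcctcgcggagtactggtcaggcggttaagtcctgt
KIF11, chr10:92592880-92593179, plus strand: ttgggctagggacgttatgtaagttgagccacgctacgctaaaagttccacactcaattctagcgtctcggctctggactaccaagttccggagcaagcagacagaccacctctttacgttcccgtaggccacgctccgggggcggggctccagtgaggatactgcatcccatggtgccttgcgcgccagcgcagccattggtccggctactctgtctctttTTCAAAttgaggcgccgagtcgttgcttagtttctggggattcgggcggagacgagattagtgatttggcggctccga

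E2F letters stood in the windows of 26 of 51 members (51.0%), against 15.3% of the 27305 genes with a listed window, and CHR letters in 24 of 51 (47.1%), against 19.5%. They divided by role. E2F letters were found for 11 of 13 replication genes and 8 of 23 mitotic genes, and CHR letters for 1 of 13 replication genes, *RRM1*, and 19 of 23 mitotic genes. Among measured members, E2F letters were found for 7 of the 9 that rose and had a window (*CDC7*, *DTL*, *E2F7*, *EXO1*, *RAD54L*, *TFDP1* and *TIMELESS*), for 0 of 2 that fell and for 9 of 24 that did not pass. CHR letters were found for 1 of those 9, *ESPL1*, for 1 of the 2 that fell, *UBE2T*, and for 15 of the 24 that did not pass. These are matches of letters only, given as counts with no test.

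Of the 44 measured members, 13 passed the test, 10 higher and 3 lower in *HIST1H1A* clones, which is 29.5%. The members were chosen with earlier results of these data known, so the shares below are set beside this one as a description only. Over all clusters 5.79% were called, 3.77% higher and 2.02% lower. Over clusters with a gene symbol 12.2% were called (8.45% higher and 3.72% lower), and over those also brighter than the median 16.4%, a closer yardstick because 43 of the 44 members were as bright. The limma calls of single roles and lists are to be read against these shares. Without the D cyclins, 11 of 42 members (26.2%) passed, 9 higher and 2 lower. The members' median difference was 0.21, beside -0.01 over all clusters, 0.03 over clusters with a symbol and 0.07 over bright clusters with a symbol. At an unadjusted limma p under 0.05 stood 16 of the 44 members, beside 15.1% of all clusters and 32.6% of bright clusters with a symbol, the shares against which the unadjusted counts of single roles and lists are to be read. With a fold over 2 also asked for, 7 members passed, beside 3.77% of all clusters. The signals of the groups did not overlap in 15 members, 12 higher and 3 lower, where 11.1% of all clusters did not overlap. For the fold and overlap counts no share over bright clusters with a symbol was computed, so the closer yardstick is missing for them. In bulk RNA a larger share of cells in 1 phase and more RNA per cell cannot be told apart.

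**Figure D1:**
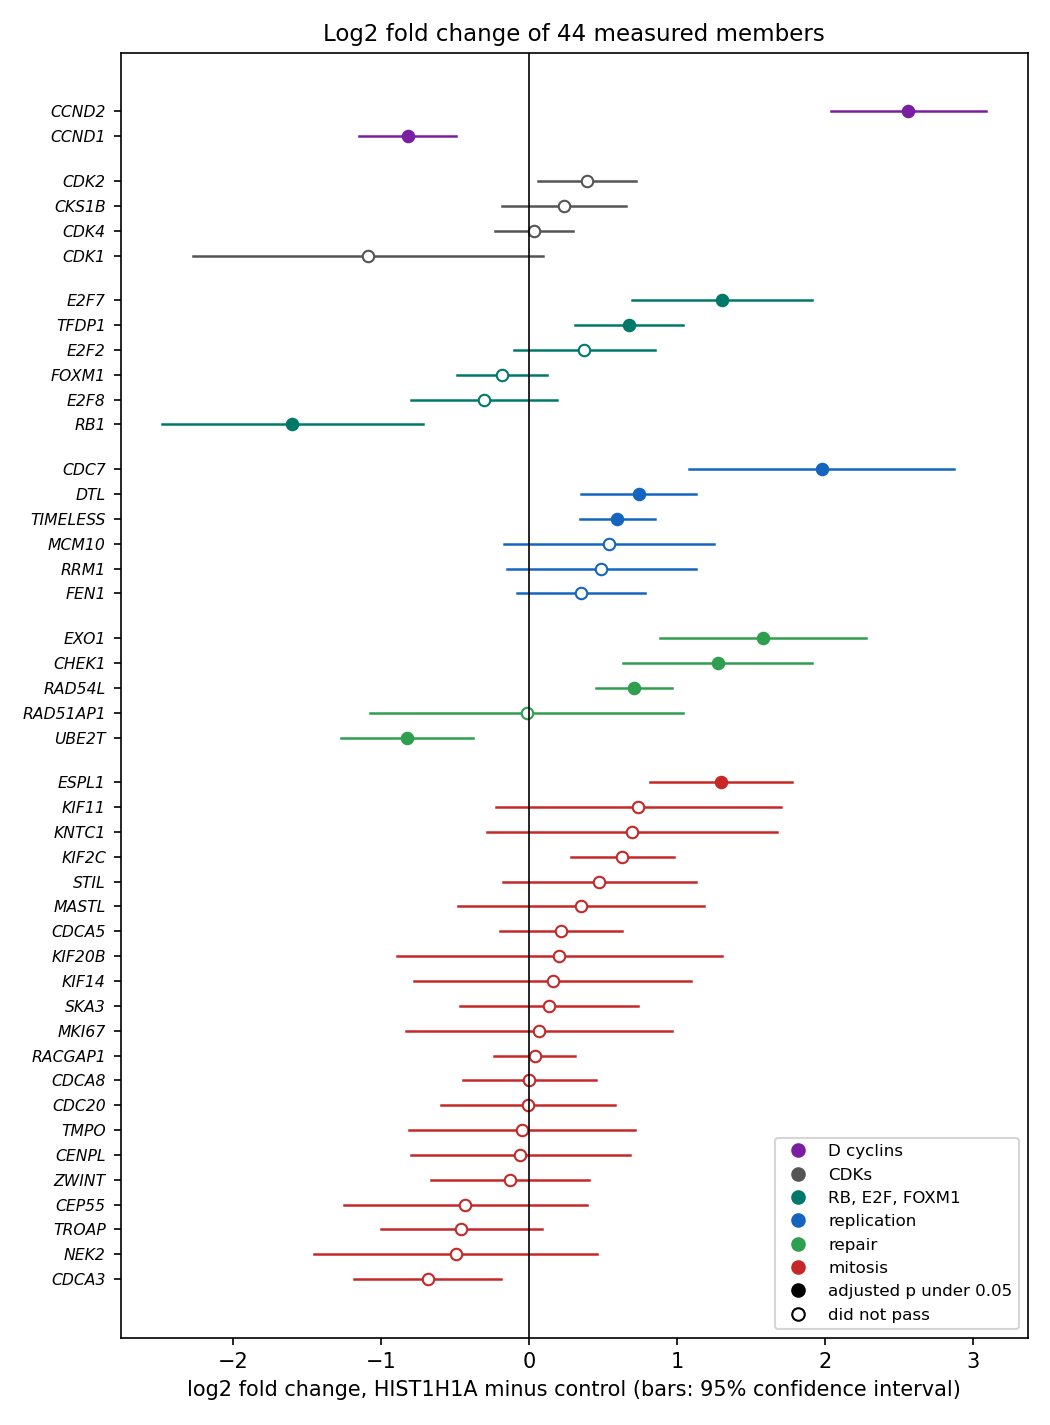
Log2 fold change, *HIST1H1A* minus control, of the 44 measured members on the x axis, ordered by role and size on the y axis, with bars for the 95% confidence interval of limma and filled points for an adjusted p under 0.05. The replication and repair genes hold 7 filled points among 11, 6 higher and 1 lower, and the 21 mitotic genes hold 1, *ESPL1*. Limma called 16.4% of bright clusters with a symbol. At an adjusted p under 0.05 in the ordinary equal-variance test, 2 of those 11 and 1 of the 21 passed.

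The D cyclins moved in opposite directions. *CCND2*, which encodes cyclin D2, had 6.38, 6.68, 6.74 and 6.69 in *HIST1H1A* clones 2, 8, 9 and 10, and 4.60, 4.17, 4.02 and 3.44 in control clones 3, 4, 8 and 9. Every *HIST1H1A* clone stood above every control clone. The means were 6.62 ± 0.17 and 4.06 ± 0.48 (SD, n = 4 each), and cyclin D2 signal was 5.92-fold higher (log2 2.57, SE 0.23; limma, adjusted p = 0.000386). A second, dimmer cluster named for *CCND2*, whose strand was not checked, differed by 0.14 (limma, adjusted p = 0.732), and with the clusters averaged the difference was 1.35.

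*CCND1*, which encodes cyclin D1, had 8.31, 7.67, 7.95 and 7.94 in *HIST1H1A* clones 2, 8, 9 and 10. In control clones 3, 4, 8 and 9 it had 8.70, 8.81, 8.86 and 8.78. The control clones lay within a narrow band and all 4 *HIST1H1A* clones below it. *CCND1* averaged 7.96 ± 0.26 in *HIST1H1A* clones and 8.79 ± 0.07 in control clones (SD, n = 4 each), 1.77-fold lower (log2 -0.82, SE 0.14; limma, adjusted p = 0.0116). Both D cyclins passed in all 16 alternative settings that kept at least 7 arrays and set no fold threshold. Adjusted p was up to 0.00736 for *CCND2* and 0.0436 for *CCND1* in limma or the ordinary equal-variance test. With a fold over 2 also asked for, *CCND2* passed and *CCND1* did not.

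None of the 4 measured genes of cyclin-dependent kinases and their regulators passed in limma, with 1 at an unadjusted p under 0.05, *CDK2*, and none passed in the ordinary equal-variance test. *CDK4*, the kinase of the D cyclins, had 10.51, 10.43, 10.37 and 10.24 in *HIST1H1A* clones 2, 8, 9 and 10 and 10.51, 10.39, 10.21 and 10.31 in control clones 3, 4, 8 and 9, with a difference of 0.03 (95% confidence interval -0.23 to 0.30). The groups lay on top of each other. *CDK2*, the kinase of S phase entry, had 8.38, 7.92, 8.03 and 8.08 in *HIST1H1A* clones 2, 8, 9 and 10 and 7.45, 7.70, 7.77 and 7.90 in control clones 3, 4, 8 and 9. Its groups did not overlap, though by little, and the difference of 0.39 (interval 0.06 to 0.72) had an adjusted p of 0.219 in limma. *CDK1*, the kinase of mitotic entry, had 6.27, 5.04, 5.14 and 6.02 in *HIST1H1A* clones 2, 8, 9 and 10 and 5.81, 6.38, 6.39 and 8.25 in control clones 3, 4, 8 and 9. Control clone 9 stood far above the other controls, and the difference of -1.09 (interval -2.27 to 0.10; limma, adjusted p = 0.394) was -0.58 without it. *CKS1B*, a small subunit of these kinases, differed by 0.24 (limma, adjusted p = 0.692).

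**Figure D2:**
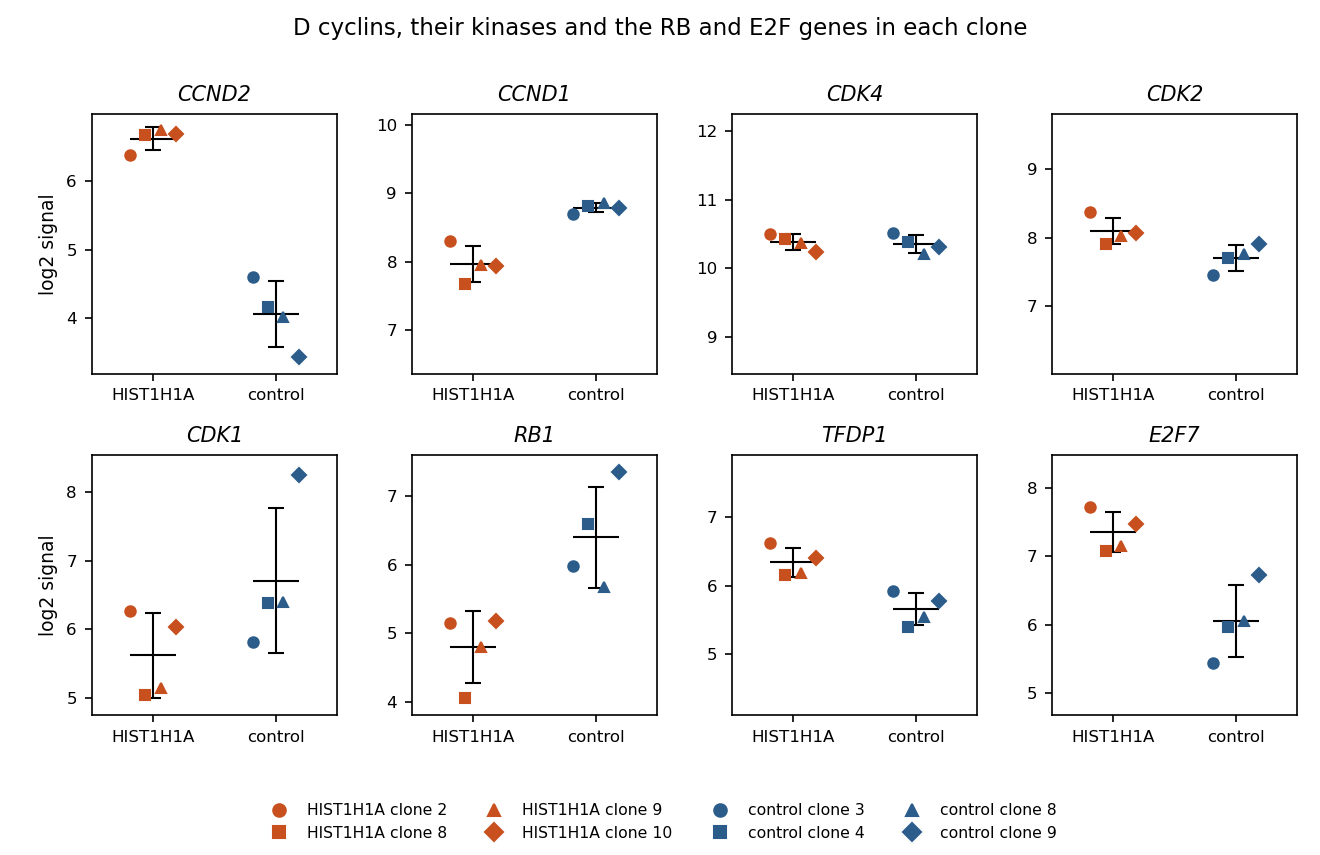
Log2 signal on the y axis of 8 genes of the G1 to S transition and CDK1, with the *HIST1H1A* clones on the left and the control clones on the right of each panel, a marker for each clone, and the mean with its SD as a line and bars (n = 4 each). Every panel spans the same range of log2 units. The groups do not overlap for *CCND2*, *CCND1*, *RB1*, *TFDP1* and *E2F7*, nor, by little, for *CDK2*, and *CDK4* lies at 10.2 to 10.5 in both.

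Among the 6 genes of the RB, E2F and FOXM1 layer, all measured, 2 rose and 1 fell. *RB1*, which encodes RB itself, had 5.15, 4.06, 4.81 and 5.19 in *HIST1H1A* clones 2, 8, 9 and 10 and 5.99, 6.59, 5.67 and 7.35 in control clones 3, 4, 8 and 9. The groups did not overlap, but both were widely spread (SD 0.52 in *HIST1H1A* clones and 0.74 in control clones). *RB1* was 3.03-fold lower (log2 -1.60, SE 0.39; limma, adjusted p = 0.0496), just inside the threshold, and it did not pass without control clone 3, 4 or 9 (adjusted p = 0.0668, 0.130 and 0.0646) or without *HIST1H1A* clone 2, 8, 9 or 10 (0.0794, 0.115, 0.128 and 0.0834). With all 8 arrays it did not pass in the ordinary equal-variance test (adjusted p = 0.162), with trend and robust settings (0.0530) or after median centring (0.0524). Its difference stayed negative in every one of these settings.

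*E2F7*, an atypical E2F that represses transcription, rose. It had 7.72, 7.08, 7.15 and 7.46 in *HIST1H1A* clones 2, 8, 9 and 10 and 5.44, 5.97, 6.06 and 6.72 in control clones 3, 4, 8 and 9, with no overlap, and was 2.47-fold higher (log2 1.31, SE 0.27; limma, adjusted p = 0.0235). The call ended without control clone 4 or 8 (adjusted p = 0.0716 and 0.0568) and without *HIST1H1A* clone 2, 9 or 10 (0.0681, 0.0556 and 0.0756), and in the ordinary equal-variance test (0.0946). *TFDP1*, which encodes the E2F partner DP1, rose as well. It had 6.62, 6.17, 6.18 and 6.40 in *HIST1H1A* clones 2, 8, 9 and 10 and 5.93, 5.41, 5.55 and 5.78 in control clones 3, 4, 8 and 9, and was 1.60-fold higher (log2 0.68, SE 0.16; limma, adjusted p = 0.0448). Its call held without control clone 3 and ended without any other single array, with adjusted p from 0.0630 without control clone 9 to 0.129 without *HIST1H1A* clone 10 (0.118 and 0.104 without control clones 4 and 8, and 0.111, 0.0650 and 0.0807 without *HIST1H1A* clones 2, 8 and 9). With all 8 arrays it ended in the ordinary equal-variance test (0.0971), with trend and robust settings (0.101) and after quantile normalization (0.0634).

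The other 3 did not pass. *FOXM1*, the activator of G2 and mitotic genes, had 8.14, 7.78, 7.95 and 7.71 in *HIST1H1A* clones 2, 8, 9 and 10 and 7.97, 8.19, 8.20 and 7.95 in control clones 3, 4, 8 and 9, a difference of -0.18 (interval -0.49 to 0.12; limma, adjusted p = 0.659). *E2F2*, an activating E2F, differed by 0.37, and *E2F8*, the close relative of *E2F7*, by -0.31, with intervals that include 0 for both.

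Of 13 replication genes 6 were measured, and 3 rose, with none lower. *CDC7*, the kinase that with DBF4 fires origins, had 7.90, 7.11, 7.64 and 8.05 in *HIST1H1A* clones 2, 8, 9 and 10 and 5.17, 5.37, 5.32 and 6.92 in control clones 3, 4, 8 and 9. Control clone 9 lay between the other controls and the *HIST1H1A* clones. *CDC7* was 3.94-fold higher (log2 1.98, SE 0.39; limma, adjusted p = 0.0206). Without control clone 9 the difference was 2.39 (adjusted p = 0.00099), whereas the call ended without control clone 3, 4 or 8 (adjusted p = 0.0557, 0.0678 and 0.0583) and without *HIST1H1A* clone 2, 9 or 10 (0.0626, 0.0636 and 0.0697), and in the ordinary equal-variance test (0.0954).

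*TIMELESS*, a component of the replication fork protection complex, had 8.53, 8.84, 8.68 and 8.60 in *HIST1H1A* clones 2, 8, 9 and 10 and 8.02, 8.14, 7.96 and 8.14 in control clones 3, 4, 8 and 9. The clones of a group lay close together, and *TIMELESS* was 1.51-fold higher (log2 0.60, SE 0.11; limma, adjusted p = 0.0154), with a call that ended without *HIST1H1A* clone 9 (adjusted p = 0.0551) and with trend and robust settings (0.0611). *DTL*, which encodes the CRL4 ubiquitin ligase adaptor CDT2 that clears the licensing factor CDT1 in S phase, had 9.84, 9.18, 9.77 and 9.78 in *HIST1H1A* clones 2, 8, 9 and 10 and 8.74, 8.88, 9.11 and 8.86 in control clones 3, 4, 8 and 9. It was 1.67-fold higher (log2 0.74, SE 0.17; limma, adjusted p = 0.0394). *HIST1H1A* clone 8 lay just above the highest control. The call of *DTL* held without control clone 8 or *HIST1H1A* clone 8 and ended without control clone 3, 4 or 9 (adjusted p = 0.0960, 0.102 and 0.0771) and without *HIST1H1A* clone 2, 9 or 10 (0.109, 0.124 and 0.123), and with all 8 arrays in the ordinary equal-variance test (0.0968) and with trend and robust settings (0.0633).

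The 3 replication genes that did not pass all had positive differences. *MCM10*, which helps to activate the replicative helicase, had 8.17, 7.17, 7.17 and 7.62 in *HIST1H1A* clones 2, 8, 9 and 10 and 6.29, 6.87, 7.32 and 7.49 in control clones 3, 4, 8 and 9, a difference of 0.54 (interval -0.17 to 1.25; limma, adjusted p = 0.524) with overlap between the groups. *RRM1*, a subunit of ribonucleotide reductase, differed by 0.49, and *FEN1*, the flap endonuclease of Okazaki fragment processing, by 0.35.

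Of 7 damage checkpoint and repair genes 5 were measured, of which 3 rose and 1 fell. *RAD54L*, a motor protein of homologous recombination, had 7.14, 7.03, 7.12 and 7.02 in *HIST1H1A* clones 2, 8, 9 and 10 and 6.57, 6.35, 6.32 and 6.22 in control clones 3, 4, 8 and 9. The *HIST1H1A* clones spanned a narrow range (SD 0.06) above all controls. It was 1.64-fold higher (log2 0.71, SE 0.11; limma, adjusted p = 0.00684), short of a fold over 2. *RAD54L* passed in the same 16 alternative settings as the D cyclins, with adjusted p up to 0.0366 in limma or the ordinary equal-variance test.

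*EXO1*, an exonuclease of mismatch repair and DNA end resection, had 7.94, 7.30, 7.48 and 7.69 in *HIST1H1A* clones 2, 8, 9 and 10 and 5.11, 6.15, 6.18 and 6.63 in control clones 3, 4, 8 and 9. No clone of one group reached the other, and *EXO1* was 2.99-fold higher (log2 1.58, SE 0.31; limma, adjusted p = 0.0179). The call ended without *HIST1H1A* clone 2, 9 or 10 (adjusted p = 0.0561, 0.0530 and 0.0595), and in the ordinary equal-variance test (0.0840). *CHEK1*, the effector kinase of the replication checkpoint, had 7.21, 6.66, 7.09 and 7.25 in *HIST1H1A* clones 2, 8, 9 and 10 and 5.32, 6.01, 5.29 and 6.48 in control clones 3, 4, 8 and 9. *HIST1H1A* clone 8 and control clone 9 came close to each other. *CHEK1* was 2.42-fold higher (log2 1.27, SE 0.28; limma, adjusted p = 0.0326), and the call held without control clone 9 (adjusted p = 0.00794) or *HIST1H1A* clone 8 and ended without control clone 3, 4 or 8 (0.0773, 0.0636 and 0.0750) and without *HIST1H1A* clone 2, 9 or 10 (0.0894, 0.0965 and 0.102), and in the ordinary equal-variance test (0.115).

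*UBE2T*, the ubiquitin-conjugating enzyme of the Fanconi anemia pathway, fell. It had 8.39, 8.09, 7.89 and 7.96 in *HIST1H1A* clones 2, 8, 9 and 10 and 8.44, 9.02, 8.89 and 9.28 in control clones 3, 4, 8 and 9, and was 1.77-fold lower (log2 -0.83, SE 0.20; limma, adjusted p = 0.0455). *HIST1H1A* clone 2 and control clone 3 nearly met. The call ended without control clone 4, 8 or 9 (adjusted p = 0.123, 0.0940 and 0.0802) and without *HIST1H1A* clone 8, 9 or 10 (0.105, 0.138 and 0.135). With all 8 arrays it ended in the ordinary equal-variance test (0.119), with trend and robust settings (0.0677) and after median centring (0.0527). *RAD51AP1*, another gene of homologous recombination, had 4.07 to 4.58 in *HIST1H1A* clones, against 3.66, 3.83 and 4.06 in control clones 3, 4 and 8 but 5.94 in control clone 9, and differed by -0.02 (interval -1.07 to 1.04).

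**Figure D3:**
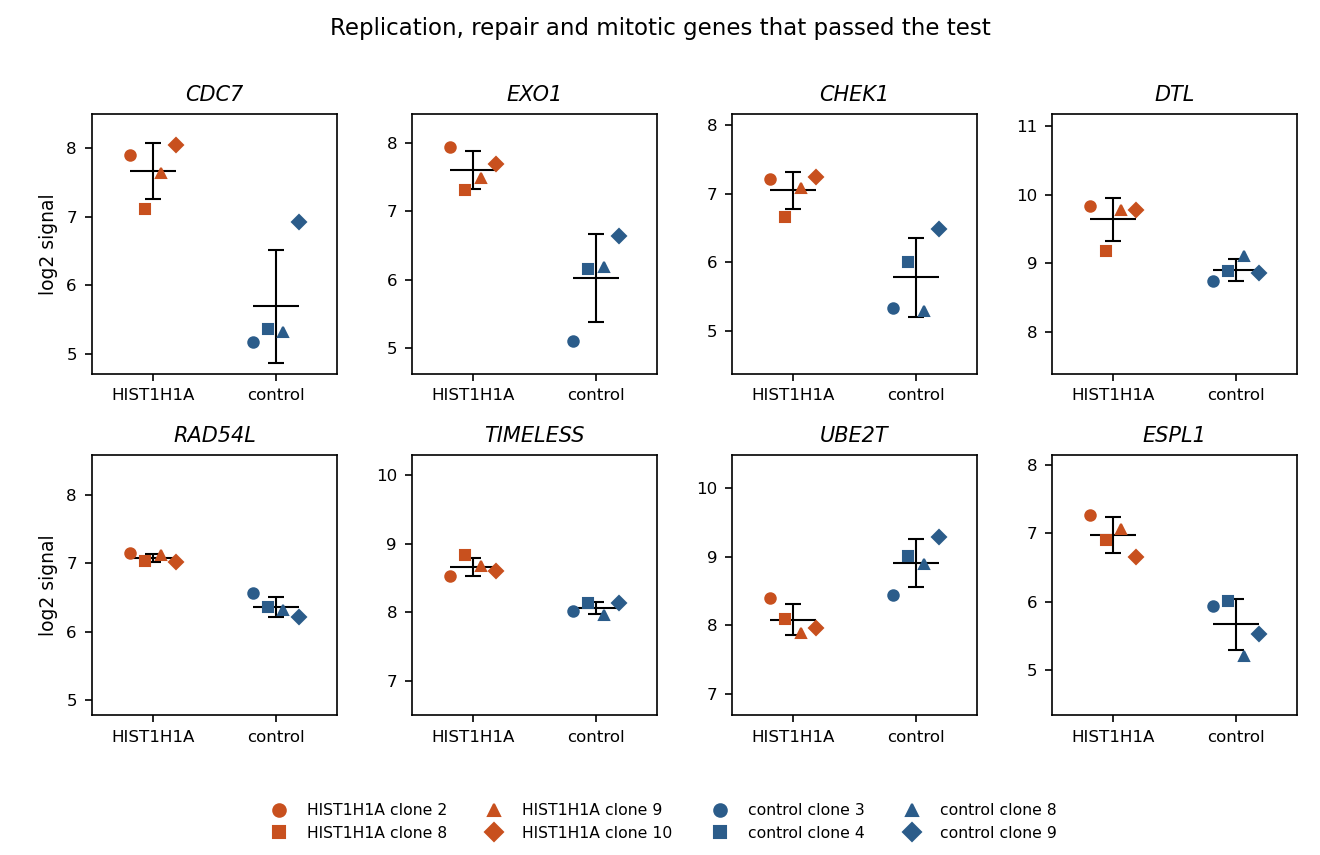
Log2 signal on the y axis of the 8 replication, repair and mitotic genes that passed, with the *HIST1H1A* clones on the left and the control clones on the right, a marker for each clone, and the mean with its SD (n = 4 each). Every panel spans the same range of log2 units. No gene overlaps between groups, and control clone 9 is the highest control for *CDC7*, *EXO1*, *CHEK1* and *UBE2T*.

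Of 27 mitotic genes listed 21 were measured, and 1 rose and none fell (limma), with 3 at an unadjusted p under 0.05 and 1 call in the ordinary equal-variance test. The 1 limma call is 4.76% of the 21, near the 5.79% of all clusters, and 16.4% of bright clusters with a symbol were called. The median difference of the 21 genes was 0.07, and 13 differences were positive and 8 negative. *ESPL1*, which encodes separase, the protease that cleaves cohesin at anaphase, was the 1 that passed. It had 7.27, 6.89, 7.06 and 6.65 in *HIST1H1A* clones 2, 8, 9 and 10 and 5.93, 6.01, 5.21 and 5.53 in control clones 3, 4, 8 and 9, with no overlap. *ESPL1* was 2.46-fold higher (log2 1.30, SE 0.21; limma, adjusted p = 0.00767) and passed in all 16 alternative settings, with adjusted p up to 0.0414.

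*KIF2C*, a kinesin that depolymerizes microtubules at kinetochores, lay just outside the threshold. It had 8.69, 8.35, 8.71 and 8.34 in *HIST1H1A* clones 2, 8, 9 and 10 and 7.97, 8.14, 7.82 and 7.63 in control clones 3, 4, 8 and 9, with no overlap and a difference of 0.63 (interval 0.28 to 0.98; limma, adjusted p = 0.0503), and it passed after median centring (0.0454) and over named clusters only (0.0213). *CDCA3*, a trigger of mitotic entry, had the most negative difference, -0.68 (limma, adjusted p = 0.137), and passed only without *HIST1H1A* clone 2 (adjusted p = 0.0257). *MKI67*, which encodes the proliferation marker Ki-67, had 9.46, 7.88, 8.53 and 8.70 in *HIST1H1A* clones 2, 8, 9 and 10 and 7.71, 8.44, 8.97 and 9.17 in control clones 3, 4, 8 and 9. Its groups overlapped throughout, with a difference of 0.07 (interval -0.83 to 0.97; limma, adjusted p = 0.973). *CDC20*, the activator of the anaphase-promoting complex, differed by -0.01 (interval -0.59 to 0.58). The other 16 mitotic genes had differences from -0.50 for the centrosomal kinase *NEK2* to 0.74 for the spindle kinesin *KIF11*. *RACGAP1*, a part of the cytokinetic spindle apparatus, was the 1 member with a mean below the median of all values.

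Within each group the mitotic genes varied with the clone. Control clone 9 was the highest control for 14 of the 21 mitotic genes and for 27 of all 44 members, where it was the highest control in 37.1% of bright clusters with a symbol. *HIST1H1A* clone 2 was the highest *HIST1H1A* clone for 18 of the 21 and for 33 of the 44, against 35.7% of those clusters. Measured from each gene's mean over the 8 arrays, the median level of the mitotic genes was 0.55, -0.27, -0.07 and 0.06 in *HIST1H1A* clones 2, 8, 9 and 10. It was -0.38, -0.04, -0.22 and 0.50 in control clones 3, 4, 8 and 9. The highest clone of each group thus stood at a like level, while over all bright clusters with a symbol the medians of the 8 clones stayed between -0.19 and 0.08. *KIF11* shows this, with 8.42, 6.88, 7.73 and 7.98 in *HIST1H1A* clones 2, 8, 9 and 10 and 6.38, 6.69, 6.90 and 8.09 in control clones 3, 4, 8 and 9. The pattern did not hold for every mitotic gene, since *CDC20*, *CDCA3*, *CDCA8*, *TROAP* and *KIF2C* had their lowest control signal in control clone 9.

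The 11 measured replication and repair genes had median levels of 0.57, -0.09, 0.32 and 0.36 in *HIST1H1A* clones 2, 8, 9 and 10. In control clones 3, 4, 8 and 9 these were -0.64, -0.39, -0.40 and 0.07. *HIST1H1A* clone 8 was thus below control clone 9 in this measure. The median SD of the mitotic genes was 0.46 among *HIST1H1A* clones and 0.53 among control clones, beside 0.23 and 0.32 over bright clusters with a symbol. Without control clone 9, 9 members passed, 8 higher and 1 lower, and the median difference of the 42 members other than the D cyclins was 0.37. Without *HIST1H1A* clone 2 it was 0.03, and 7 members passed, 4 higher and 3 lower. The part of these 2 clones in each member's result was tested only by leaving each out.

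**Figure D4:**
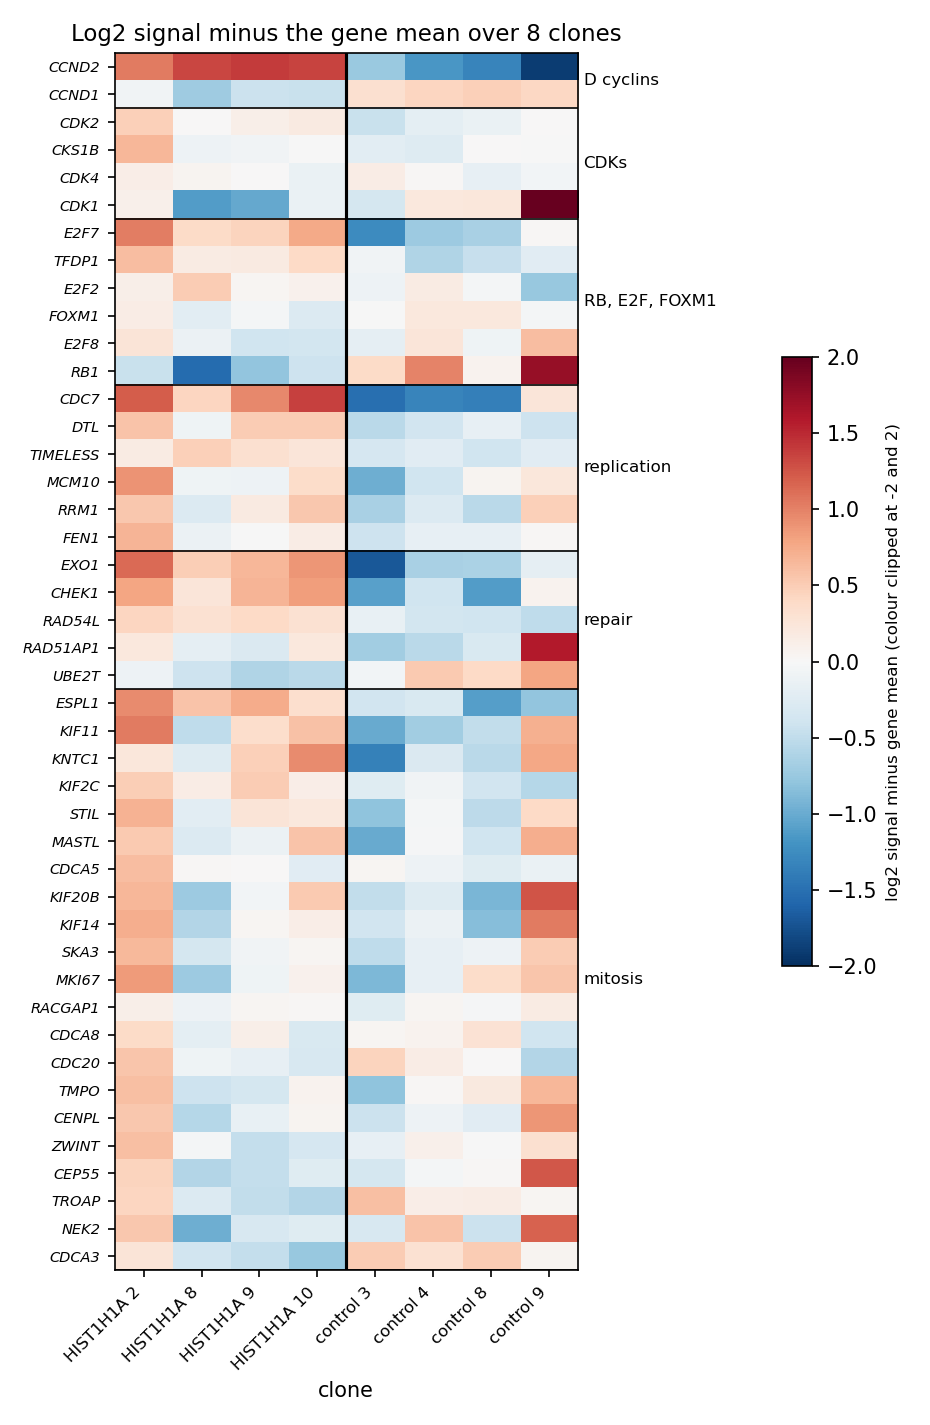
Log2 signal minus the gene's mean over the 8 clones, in colour (red higher, blue lower, clipped at -2 and 2), for the 44 measured members in rows by role and the 8 clones in columns, the *HIST1H1A* clones left of the line. The columns of *HIST1H1A* clone 2 and control clone 9 are red over most mitotic rows, and the D cyclin rows change colour at the line.

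A wider list of 215 other cell cycle and replication genes had 27 measured members, of which 1 rose and none fell (limma), with 6 at an unadjusted p under 0.05 and 1 call in the ordinary equal-variance test. Limma called 5.79% of all clusters, 12.2% of those with a gene symbol and 16.4% of bright ones with a symbol. *UNG*, the uracil DNA glycosylase of base excision repair, rose. It had 8.54, 8.34, 8.41 and 8.27 in *HIST1H1A* clones 2, 8, 9 and 10 and 7.68, 7.64, 7.76 and 7.34 in control clones 3, 4, 8 and 9, a difference of 0.79 (limma, adjusted p = 0.00766). Of the 27 differences 21 were positive, with a median of 0.38, and control clone 9 was the highest control for 21 of the 27 genes. Of 29 p53 target and growth arrest genes 5 were measured and none passed in limma or the ordinary equal-variance test, with 3 at an unadjusted p under 0.05. Those 3 were the stress-induced *SESN2*, with a difference of 1.34, the checkpoint protein gene *SFN*, with -0.67, and the kinase gene *PLK3*, with -0.35. *SESN2* had 9.65 in *HIST1H1A* clone 8 and 7.57, 7.61 and 8.07 in the other *HIST1H1A* clones, against 6.37 to 7.25 in control clones.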

How the data were processed

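The authors deposited log2 signals per transcript cluster of Affymetrix Human Gene 2.0 ST arrays, 1 array per clone. Partek Genomics Suite is named for the analysis, with version, summarization and normalization not given in the sources used here. The signals were not normalized again. Platform annotation, with symbols updated through gene identifiers, named 4247 of 16377 clusters and left 12130 unnamed, and all were tested. Strand was not checked. The test was limma 3.58.1 in R 4.3.3 (lmFit, then eBayes) over the 8 arrays without covariates, with Benjamini-Hochberg adjustment over all clusters. The script was tested on simulated arrays. Alternatives were an ordinary equal-variance test (Student's, which the study names for its other assays, while its array methods name no test), trend and robust settings, quantile normalization, median centring, leaving out dim clusters, leaving out unnamed clusters, the mean over a gene's clusters, a fold over 2, leaving out each array, a clone-number block and, added after seeing the data, array weights. The members and lists were chosen with earlier results of these data known. In full were given the D cyclins, members that passed and CDK1, CDK2, CDK4, FOXM1, MKI67 and MCM10. *KIF2C*, *KIF11* and *SESN2* were chosen after their values were seen. *HIST1H1A* itself was not analysed here, so its over-expression was not checked. With 4 clones a group and 1 array each, p-values weigh a difference against a spread that mixes clone differences and measurement error. Limma moderates that spread over all clusters, and the number of arrays limits the precision.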

Additional observations from a re-analysis of the deposited data

Results flagged for a closer look

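Of 88 groups of 4 clones (44 members in each of the 2 groups), 4 held 1 clone far from the other 3 by Dixon's ratio of gap to range, where chance gives about 4.4. *CDC7* had 6.92 in control clone 9, where the next control had 5.37. *DTL* had 9.18 in *HIST1H1A* clone 8, where the next *HIST1H1A* clone had 9.77. *CKS1B* had 6.83 in *HIST1H1A* clone 2, next to 6.16, and *E2F2* had 6.72 in *HIST1H1A* clone 8, next to 6.32.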

How the results depend on the processing

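Of the 13 members that passed, 4 (*CCND1*, *CCND2*, *RAD54L* and *ESPL1*) passed in all 16 alternative settings with at least 7 arrays and no fold threshold, and none of the 13 changed sign in them. Of these 4, *CCND1* and *RAD54L* did not reach a fold over 2. Of the 31 that did not pass, 12 changed sign in some setting and 2, *KIF2C* and *CDCA3*, gained a call. The ordinary equal-variance test called 552 clusters (374 higher and 178 lower) and 5 members, 3 of them other than the D cyclins, and at its unadjusted threshold 2337 clusters and 16 members. Trend and robust settings called 8 members, 6 without the D cyclins. A fold over 2 left 618 clusters, 7 members and 6 without the D cyclins. Median centring called 12 members, 11 higher and 1 lower. Leaving out 1 array gave 602 to 963 clusters, 4 to 10 members and 2 to 8 without the D cyclins: 9, 6, 8 and 9 members without control clones 3, 4, 8 and 9, and 7, 10, 4 and 5 without *HIST1H1A* clones 2, 8, 9 and 10. The cause of these differences was not tested, and the fits without 1 array also rest on fewer arrays.

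Clone numbers 8 and 9 occur in both groups. Deviations of same-numbered clones correlated at 0.07 and -0.22, so the numbers do not pair the clones. On these 4 arrays a replicate block called 0 clusters (2103 at an unadjusted p under 0.05), 0 members (18) and 0 without the D cyclins (16). With no block there were 75 clusters, 1 member, *CCND2*, and 0 without the D cyclins (11 at an unadjusted p under 0.05). *CCND1* was -1.01 in both fits (adjusted p = 0.252 with the block and 0.172 without) and *CCND2* 2.98 (0.115 and 0.0472). The median over the 42 members was -0.09, and 12 members that had not passed turned sign with and without the block: *CKS1B* -0.085, *MCM10* -0.23, *RRM1* -0.017, *CDC20* 0.17, *MKI67* -0.87, *KIF11* -0.19, *KIF14* -0.36, *KIF20B* -0.56, *MASTL* -0.36, *KNTC1* -0.014, *RACGAP1* -0.10 and *SKA3* -0.41.

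Other turns of sign were all among members that had not passed. *CDC20* was 0.0527 after quantile normalization and *CDCA8* -0.0029 after median centring, and with array weights *CDK4* was -0.0024, *RAD51AP1* 0.21, *CDCA8* -0.029 and *CENPL* 0.0098. Leaving out 1 array gave -0.20 to 0.14 for *CDC20*, -0.22 to 0.32 for *MKI67*, -0.040 to 0.10 for *RACGAP1*, -0.062 to 0.32 for *SKA3*, -0.015 to 0.087 for *CDK4*, -0.10 to 0.53 for *KIF14*, -0.064 to 0.66 for *KIF20B*, -0.32 to 0.17 for *TMPO*, -0.25 to 0.51 for *RAD51AP1*, -0.13 to 0.10 for *CDCA8*, -0.25 to 0.23 for *CENPL* and -0.35 to 0.011 for *ZWINT*.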

Other observations

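The nearest measured and named genes on either side of the 13 members that passed gave 26 pairs, of which 22 did not pass, 2 moved as the member did and 2 the other way. Limma called 12.2% of all clusters with a gene symbol and 16.4% of the bright ones. The calls below are therefore not read as particular to the neighbours of members. Beside *CCND2*, *CRACR2A* rose by 0.86 (limma, adjusted p = 0.00635), while *TIGAR* on the other side differed by -0.05. Beside *E2F7*, *CSRP2* rose by 1.10 (adjusted p = 0.00207). *GRK1*, next to *TFDP1*, fell by 1.67 (adjusted p = 0.00331), and *SYT2*, next to *UBE2T*, rose by 0.73 (adjusted p = 0.0299). *LTO1* and *MYEOV*, beside *CCND1*, differed by 0.32 and 0.06 and did not pass.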
